A study of Mus musculus with 10 samples.

Results

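Matricellular proteins are secreted into the extracellular matrix without being its main structural fibres, and they alter how cells attach to, sense and remodel that matrix. The 10 genes described here encode periostin (Postn), the tenascins Tnc, Tnn and Tnxb, the thrombospondins Thbs1, Thbs2, Thbs3 and Thbs4, and SPARC and its relative hevin (Sparc and Sparcl1). They were chosen by name, as the rows of the count table that carry these gene symbols, and all 10 were among its 23080 genes. In the skull vault, matricellular proteins lie in osteoid, periosteum and the fibrous tissue of sutures. Tenascins and thrombospondins are also known from tendon and ligament, and the cells of the anterior fontanelle (AF) carry tendon and ligament markers.

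RNA was sequenced from the AF of mouse embryos at E18.5, shortly before birth. Each sample took in bone as well as the soft tissue of the suture, after skin and brain had been cut away. The 5 control libraries carry the genotype label WT and the 5 mutant libraries carry the label Wnt1-Cre; Fgfr2fl/fl. Wnt1-Cre drives Cre recombinase in neural crest, so the floxed Fgfr2 allele is deleted in neural crest derivatives such as frontal bone and AF mesenchyme. Blood cells and other tissue of mesodermal origin keep the receptor gene. The libraries of each group bear separate sample labels, and no label says from which animal or litter each came. The study describes controls and mutants as pairs of littermates, without saying which libraries form a pair, so the main test is unpaired and p-values measure the spread between these samples.

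The libraries held 21814198 to 28515434 counts in controls and 20774667 to 25748619 in mutants, or 15317756 to 20480184 without ribosomal RNA genes. Levels are given as CPM, counts scaled to a common library total with TMM factors between libraries. Total Fgfr2 counts went against the genotype, at 199.5 ± 21.7 CPM in controls and 318 ± 32.8 in mutants (SD, n = 5 each), without overlap. Fgfr2 was 1 of the 3 genes of the whole table with an adjusted p-value under 0.05 in edgeR (adjusted p = 0.0487). Under other settings and with libraries left out, its log2 fold change was 0.63 to 0.77. The adjusted p-value reached 0.427 in edgeR, so that the call depended on the processing. Because a gene's count takes in every transcript of its locus, it does not check a deletion. The text therefore names the groups by their labels, and every direction follows the labels. In excised tissue, fewer cells of a type and less RNA per cell cannot be told apart. Osteoblast markers were present in every library (Ibsp, bone sialoprotein, at 827 to 1926 CPM), as was the tendon and ligament gene Tnmd (33.5 to 83.2 CPM). Some libraries also carried markers of tissue outside the AF. The summed level of 6 skeletal muscle markers was 717 CPM in control 2 and 714 in mutant 1, against 17.5 to 143 in the other 8. The summed level of 5 markers of hypodermis and loose connective tissue was 219 CPM in mutant 1 and 17.1 to 66.2 in the other 9, and that of 6 neuron markers was 337 CPM in mutant 2 and 37.6 to 139 in the other 9.

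The first question was how much of each gene the tissue made. Per kilobase of merged exons, Sparc stood far above the rest, at 2229.7 ± 205 CPM per kb in control-labelled libraries (SD, n = 5). SPARC, also called osteonectin, binds collagen and calcium and is a main non-collagenous protein of bone. It held 76.1% of the level summed over the 10 genes in control-labelled libraries (70.8% to 78.4%) and 75.0% in mutant-labelled libraries (72.1% to 77.7%). Tnc followed at 180.1 ± 15.0 CPM per kb and Thbs2 at 173 ± 20.2, and their ranges overlapped. Postn stood at 114 ± 14.0 CPM per kb and Tnn at 106 ± 26.0, again with overlapping ranges, and all 5 values of Postn lay below those of Thbs2. Sparcl1 came next at 65.1 ± 6.75 CPM per kb, with a highest library of 71.4 that just overlapped the lowest of Tnn at 67.7. Thbs1, at 33.7 ± 6.08 CPM per kb, and Thbs3, at 18.2 ± 2.16, did not overlap each other or a neighbour. Tnxb at 2.40 ± 1.35 and Thbs4 at 1.95 ± 3.16 CPM per kb overlapped at the bottom. With the longest transcript as the length, Thbs2 at 205 CPM per kb stood above Tnc at 197, and the other 8 kept their place. In the mutant-labelled libraries the order was the same but for Thbs2, at 210.0 ± 30.8 CPM per kb, which stood above Tnc at 152 ± 16.7.

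**Figure D1:**
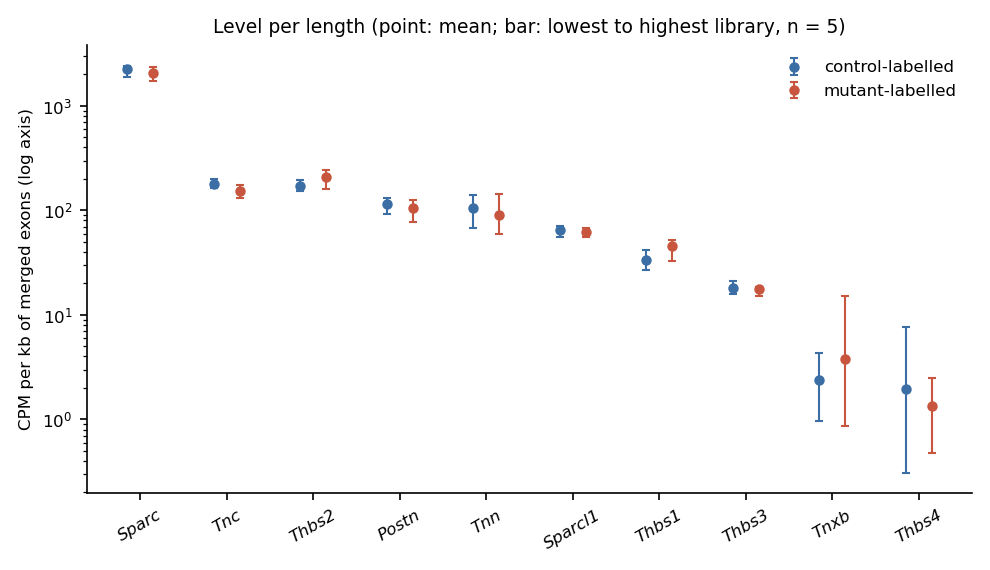
Level of each gene in CPM per kilobase of merged exons, on a log axis. Points are means and bars run from the lowest to the highest of 5 libraries, with control-labelled libraries in blue and mutant-labelled libraries in red. Sparc lies between 1729 and 2415 CPM per kb in every library, and the bars of Tnxb and Thbs4 are the longest.

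The second question was whether these levels differed between the groups. All 10 genes passed the filter on low counts, so none was left out of the test. None passed an adjusted p-value of 0.05 in edgeR's quasi-likelihood test, where 0.0184% of the 16267 genes tested did, and none did in DESeq2's Wald test or limma voom. At an unadjusted p-value under 0.05, 3 of the 10 were called by each of these tools, where 7.49% of all genes tested were in edgeR. Thbs1 and Thbs2 were the 2 with higher values in mutant-labelled libraries, a direction called for 3.68% of all genes, and Tnc was the 1 with lower values, a direction called for 3.82%. In none of the 10 did the groups separate without overlap, where 1.48% of all genes did. The fitted difference was above 0 for 3 genes and below 0 for 7, with a median log2 fold change of −0.09 against 0.00073 over all genes tested. The median size of the difference, without its sign, was 0.24 on the log2 scale for the 10 genes and 0.091 over all genes.

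**Figure D2:**
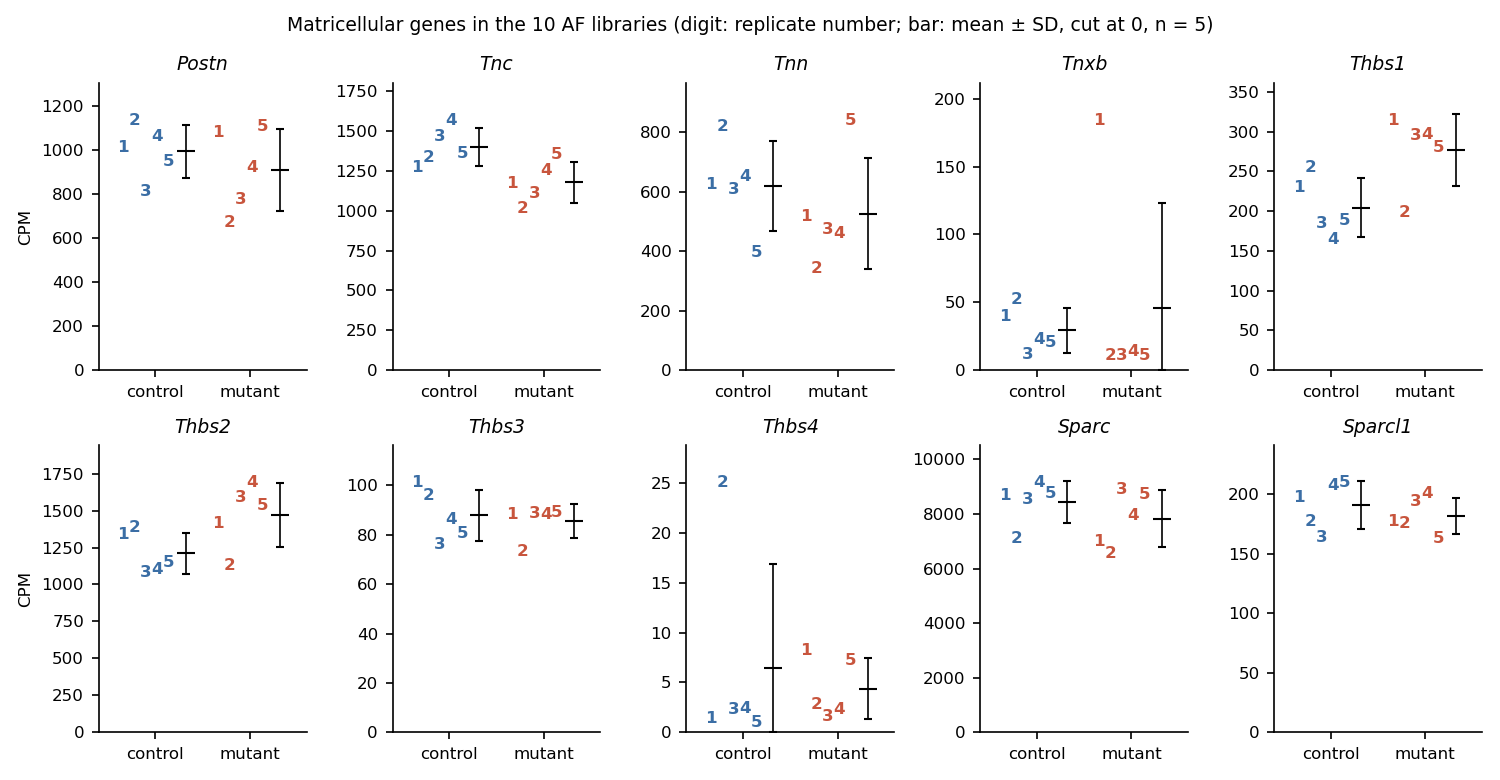
CPM of each gene in every library, with a linear axis from 0 and its own scale in each panel. Digits are replicate numbers, in blue for control-labelled and red for mutant-labelled libraries, and the black bar is the mean with its SD over 5 libraries, cut at 0. Thbs1 is above the control median of 188 CPM in all 5 mutant-labelled libraries, and single libraries stand apart for Tnxb (184 CPM) and Thbs4 (25.0 CPM).

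Tenascin-C is a hexameric glycoprotein of developing tendon, bone fronts and healing tissue that weakens the attachment of cells to fibronectin. Its gene lies at chr4:63959785-64047015 on the minus strand (GRCm38). Tnc stood at 1271, 1335, 1466, 1566 and 1359 CPM in control-labelled libraries 1 to 5 and at 1169.7, 1013, 1107, 1249.6 and 1351 CPM in mutant-labelled libraries 1 to 5. All 5 mutant-labelled values were below the control median, and only mutant 5 reached into the control range. The mean was 1399 ± 117 CPM against 1178 ± 129.7 (SD, n = 5 per group). The log2 fold change was −0.25 (standard error 0.0910, 95% interval −0.45 to −0.05). The unadjusted p-value was 0.0187 and the adjusted 0.595 in edgeR's quasi-likelihood test, and an exact permutation test on log2 CPM, two-sided, gave p = 0.0238. The smallest p-value that 5 against 5 libraries allow in that test is 0.00794. Without control 4, the library with the most Tnc, the unadjusted p-value was 0.0541 (log2 fold change −0.21). An antisense gene, 8030451A03Rik, shares 176 exon bases with Tnc, 2.26% of its exon length, and although the library kit was a stranded one, no source used here says whether the counting used strand.

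Tnc and Sparc were the genes of the 10 that followed the osteoblast markers most closely. Tnc had a Pearson correlation of 0.82 between its log2 CPM and the mean log2 level of 12 osteoblast markers over the 10 libraries (Spearman 0.88). Without the 2 libraries farthest from the median of the marker level the correlation was 0.60, and for deviations from the group means it was 0.61. The same 3 values for Sparc were 0.77, 0.61 and 0.82. The osteoblast list itself had 7 of 12 genes at an unadjusted p-value under 0.05 with lower values under the mutant label (3.82% of all genes) and none with higher values (3.68%), none past the adjusted threshold. All 12 had a fitted log2 fold change below 0, with a median of −0.29, and the groups did not overlap for Alpl, the alkaline phosphatase of mineralising cells (444 to 571 CPM in controls and 320 to 433 in mutants). The summed level of the list, mostly Col1a1, overlapped between the groups at 66335 to 77969 CPM in controls and 54313 to 78689 CPM in mutants. With the mean log2 level of the 12 markers held constant in the fit, the log2 fold change of Tnc was −0.07 (unadjusted p = 0.578, edgeR). In that fit none of the 10 genes had an unadjusted p-value under 0.05. The share of all genes that did was 3.49%, against 7.49% without the marker level. As all 12 markers had a fitted value below 0, their level and the genotype label cannot be fully told apart there. Tnc also followed the 6 osteoclast markers (Acp5, Ctsk, Mmp9, Ocstamp, Dcstamp and Calcr), at 0.73 over the 10 libraries (Spearman 0.87), 0.86 without the 2 farthest libraries and 0.69 for deviations from the group means. That list had 1 of 6 genes called with lower values and none with higher values, a median log2 fold change of −0.15, and sums of 2169 to 3485 CPM in controls and 2414 to 2707 CPM in mutants. Tnc ran against the 7 chondrocyte markers (−0.70, −0.35 without the 2 farthest libraries and −0.54 for deviations from the group means). The sums of that list did not overlap between the groups, and 2 of its 7 genes were called, both with higher values (3.68% of all genes). Against the 5 AF and tendon-like markers the values were −0.64, −0.64 without the 2 farthest libraries and −0.07 for deviations. The part of these marker levels in the Tnc difference was not tested.

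Upstream sequence is shown for Tnc and Thbs2, the genes called in opposite directions for which a RefSeq promoter window was at hand. Such windows, from 250 bases before to 50 after a start site on GRCm38.p6, were found for 8 of the 10 genes, with none for Thbs1 or Sparcl1. The start site of the Sparc window lay 3103 bases from the 5′ end of the gene in GENCODE M21. The 150 bases before each start site are printed 5′ to 3′ on the strand of the gene, at chr4:64047016-64047165 for Tnc and chr17:14694263-14694412 for Thbs2. Capitals mark matches, on either strand, to TATAA, the core of a TATA box, or to the CCAAT box, and the matches do not overlap.
Tnc: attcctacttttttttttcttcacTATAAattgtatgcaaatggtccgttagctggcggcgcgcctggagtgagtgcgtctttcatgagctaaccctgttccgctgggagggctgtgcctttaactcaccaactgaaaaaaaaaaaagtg
Thbs2: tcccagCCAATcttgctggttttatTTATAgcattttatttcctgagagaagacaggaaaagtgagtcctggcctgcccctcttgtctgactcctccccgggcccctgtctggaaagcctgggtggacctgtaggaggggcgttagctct
TATAA was found in the windows of 3 of the 8 genes (Postn, Thbs2 and Tnc), against 24.9% of the 32851 windows of all genes. In Postn it began 26 bases before the start site on the strand of the gene, and in Tnc 126 bases before the start site shown. In Thbs2 the match was on the other strand, with its first printed base 125 bases before the start site. A second RefSeq start of Tnc, at position 64046936, has TATAA beginning 27 bases before it. The CCAAT box was in 3 windows (Thbs2, Thbs3 and Tnn; 37.4% of all windows), GGGCGG, a GC box, in 3 (Thbs3, Thbs4 and Tnc; 35.7%) and CANNTG, an E box, in 6 (72.3%). TGANTCA, the AP-1 motif, was in that of Tnxb (7.81% of all windows) and CTTTGA, a TCF/LEF motif, in that of Thbs3 (16.0%). These are matches of letters, and binding was not measured.

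Tenascin-N, also called tenascin-W, is made in periosteum and in bone under formation. Tnn (chr1:160085029-160153580, minus strand) stood at 623, 819, 606, 649 and 394 CPM in control-labelled libraries and at 517, 342, 472, 460.4 and 839 CPM in mutant-labelled libraries. The highest and the lowest value both came from mutant-labelled libraries, so the groups overlapped over the whole control range. The log2 fold change was −0.23 (standard error 0.231, 95% interval −0.74 to 0.27, adjusted p = 0.851 in edgeR). Leaving out mutant 5 gave −0.46 (unadjusted p = 0.0315, adjusted 0.588), and leaving out control 2, mutant 2 or control 5 gave −0.10, −0.11 and −0.35.

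Tenascin-X binds collagen fibrils in loose connective tissue, and its loss in humans gives a form of Ehlers-Danlos syndrome. Tnxb (chr17:34670535-34719815, plus strand) was at 39.7, 52.4, 11.7, 22.3 and 20.1 CPM in control-labelled libraries and at 184, 10.5, 10.7, 13.5 and 10.95 CPM in mutant-labelled libraries. Mutant 1 held the highest value of all 10 libraries, and the other 4 mutant-labelled libraries, at 10.5 to 13.5 CPM, lay around the lowest control. The mean was 29.2 ± 16.5 against 45.9 ± 77.2 CPM (SD, n = 5 each). The fitted log2 fold change was 0.64 (standard error 0.835, 95% interval −1.19 to 2.47, adjusted p = 0.894 in edgeR), whereas the difference of mean log2 CPM was −0.37, so that its direction depended on the scale. Without mutant 1 the fitted value was −1.35 (unadjusted p = 0.00387, adjusted 0.518). The count table gives this gene a start at 34660457, which differs from that of GENCODE M21, while the other 9 genes matched.

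Tnxb moved with the markers of hypodermis and loose connective tissue. Its correlation with the mean log2 level of Clec3b, Dpt, Pi16, Mfap5 and Ly6a was 0.95 over the 10 libraries (Spearman 0.92), and 0.90 without the 2 libraries farthest from the median of that level. The list summed to 62.7, 66.2, 25.0, 58.1 and 49.4 CPM in control-labelled libraries 1 to 5 and to 219, 30.2, 19.3, 30.1 and 17.1 CPM in mutant-labelled libraries 1 to 5. With that level held constant, the log2 fold change was 0.23 (unadjusted p = 0.353, edgeR). The part of these markers' tissue in the Tnxb values was not tested.

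Periostin is secreted by periosteum and dense connective tissue and supports collagen cross-linking. Postn (chr3:54361109-54391037, plus strand) was at 1008, 1133, 811, 1060.4 and 948 CPM in control-labelled libraries and at 1076, 669, 775, 918 and 1104 CPM in mutant-labelled libraries. Of the mutant-labelled libraries, 2 were above and 3 below the control median, and mutant 2 and mutant 3 lay below every control. The log2 fold change was −0.13 (standard error 0.141, 95% interval −0.44 to 0.18, adjusted p = 0.872 in edgeR; exact permutation p = 0.389). Leaving out mutant 2 brought it to −0.03, and leaving out mutant 5 to −0.21.

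**Figure D3:**
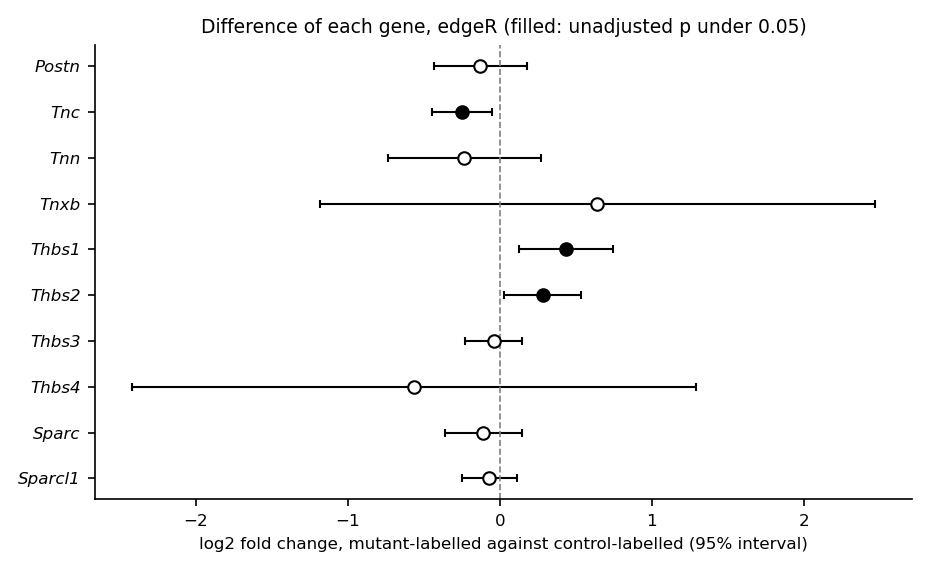
Log2 fold change of each gene between mutant-labelled and control-labelled libraries in edgeR's fit, with its 95% interval over 5 libraries per group. Filled points have an unadjusted p-value under 0.05, which Tnc, Thbs1 and Thbs2 do. The intervals of Tnxb (−1.19 to 2.47) and Thbs4 (−2.42 to 1.29) are the widest.

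Thrombospondin-1 and thrombospondin-2 are closely related trimers that bind CD47 and CD36, restrain the growth of blood vessels and, in the case of thrombospondin-1, activate latent TGFβ. Thbs1 (chr2:118111876-118127133, plus strand) was at 229.8, 255, 185.01, 164 and 188 CPM in control-labelled libraries and at 314, 198, 296, 296 and 280.1 CPM in mutant-labelled libraries. All mutant-labelled libraries but mutant 2 lay above the highest control, and mutant 2 lay inside the control range. The mean was 205 ± 37.0 against 277 ± 45.5 CPM (SD, n = 5 each), a fitted 1.35-fold difference, or 0.44 on the log2 scale (standard error 0.141, 95% interval 0.13 to 0.74). The unadjusted p-value was 0.00964 and the adjusted 0.522 in edgeR, and the exact permutation test gave p = 0.0317. Leaving out each library in turn gave log2 fold changes of 0.37 to 0.54, each with an unadjusted p-value under 0.05. A long non-coding RNA on the other strand, Gm29233, shares 208 exon bases with Thbs1.

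Thbs2 (chr17:14665500-14694235, minus strand) was at 1341, 1382, 1079, 1099 and 1150.3 CPM in control-labelled libraries and at 1412, 1128, 1589, 1688 and 1536 CPM in mutant-labelled libraries. As with Thbs1, all mutant-labelled libraries but mutant 2 exceeded every control. The mean was 1210.2 ± 141 against 1470.5 ± 216 CPM (SD, n = 5 per group). The log2 fold change was 0.28 (standard error 0.116, 95% interval 0.03 to 0.53, unadjusted p = 0.0329, adjusted p = 0.639 in edgeR). The exact permutation test gave p = 0.0556. The unadjusted p-value was above 0.05 without control 3 (0.0672), control 4 (0.0778), control 5 (0.0580), mutant 3 (0.0610), mutant 4 (0.0715) or mutant 5 (0.0643), and also with library size alone as the scaling (0.0939) or with the replicate number as a block (0.0889).

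Thbs1 and Thbs2 had the most similar profiles of the 45 pairs that the 10 genes form, with a Pearson correlation of 0.93 over the 10 libraries (Spearman 0.90). It was 0.89 without the 2 libraries farthest from the Thbs1 median and 0.88 for deviations from the group means. Both also followed the 5 AF and tendon-like markers (Scx, Tnmd, Mkx, Matn4 and Fmod), at 0.83 for Thbs1 and 0.85 for Thbs2, and the 5 ectocranial mesenchyme markers (C1qtnf3, Igfbp3, Fgf18, Fgf9 and Fgf2), at 0.91 and 0.79. For deviations from the group means these were 0.64 and 0.81 for the AF and tendon-like markers and 0.83 and 0.63 for the ectocranial markers. The ectocranial markers summed to 356 to 482 CPM in controls and 388 to 562 CPM in mutants, and 2 of the 5 had an unadjusted p-value under 0.05, both with higher values (3.68% of all genes). The AF and tendon-like markers summed to 377 to 457 CPM in control-labelled libraries and to 461 to 635 CPM in mutant-labelled libraries, with no overlap, and 4 of the 5 had an unadjusted p-value under 0.05, all with higher values (again 3.68% of all genes). With their level held constant the log2 fold change was −0.08 for Thbs1 and −0.23 for Thbs2 (unadjusted p = 0.751 and 0.216, edgeR). The sums of these markers separated the groups, and all 5 had a fitted value above 0. The level held constant, a mean of log2 values, and the genotype label therefore cannot be told apart in this fit. With the osteoblast level held constant instead, the log2 fold changes of Thbs1 and Thbs2 were 0.33 and 0.26 (unadjusted p = 0.143 and 0.163, edgeR). The osteoblast level also went in part with the genotype label. Mutant 2 was the lowest mutant-labelled library in Thbs1, Thbs2 and Thbs3, and also in Postn, Tnc, Tnn, Tnxb and Sparc. It was the library lowest of all 10 in the osteoblast sum (54313 CPM) and the highest in neuron markers. With the neuron marker level held constant the log2 fold changes of Thbs1 and Thbs2 were 0.48 and 0.34 (unadjusted p = 0.00580 and 0.0122, edgeR).

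Thrombospondin-3 and thrombospondin-4 belong to the pentameric branch of the family, which lacks the domain that activates TGFβ. Thbs3 (chr3:89215180-89226837, plus strand) was at 75.9 to 101 CPM in control-labelled libraries, with a median of 86.0, and at 73.2 to 89.2 CPM in mutant-labelled libraries, with a median of 88.3. Its log2 fold change was −0.04 (standard error 0.0857, 95% interval −0.23 to 0.15, adjusted p = 0.944 in edgeR), and it was above 0 without control 1, control 2 or mutant 2 (0.02, 0.0015 and 0.02). With the AF and tendon-like level held constant it was −0.37 (unadjusted p = 0.0215, adjusted p = 0.675, edgeR). In that fit 7.13% of all genes had an unadjusted p-value under 0.05, and the marker level and the genotype label cannot be told apart. Thbs3 shares 318 exon bases, 6.59% of its exon length, with Mtx1 on the other strand.

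Thrombospondin-4 is made in tendon and at the junction of muscle and tendon. Thbs4 (chr13:92751590-92794818, minus strand) was the lowest of the 10 genes per length, with 24 to 729 counts per library. It was at 1.41, 25.0, 2.25, 2.41 and 1.01 CPM in control-labelled libraries and at 8.17, 2.82, 1.58, 2.26 and 7.15 CPM in mutant-labelled libraries. Control 2 stood above all others, and mutant 1 and mutant 5 followed. The fitted log2 fold change was −0.56 (standard error 0.848, 95% interval −2.42 to 1.29, adjusted p = 0.913 in edgeR), while the difference of mean log2 CPM was 0.32. Without control 2 the fitted value was 1.31 (unadjusted p = 0.0248, adjusted 0.561), and without both libraries highest in muscle markers it was 0.97 (unadjusted p = 0.0665).

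Thbs4 moved with skeletal muscle markers, with a correlation of 0.88 to the mean log2 level of Myh3, Myh8, Acta1, Ckm, Tnnt3 and Myl1 over the 10 libraries (Spearman 0.85), 0.70 without the 2 libraries farthest from its median. Those 6 genes summed to 19.5, 717, 143, 69.7 and 17.6 CPM in control-labelled libraries 1 to 5 and to 714, 64.5, 17.5, 19.0 and 118 CPM in mutant-labelled libraries 1 to 5. Control 2 and mutant 1, level in muscle markers, differed in Thbs4 at 25.0 and 8.17 CPM. With the muscle level held constant the log2 fold change was 0.28 (unadjusted p = 0.508, edgeR). The part of muscle in the Thbs4 values was not tested.

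**Figure D4:**
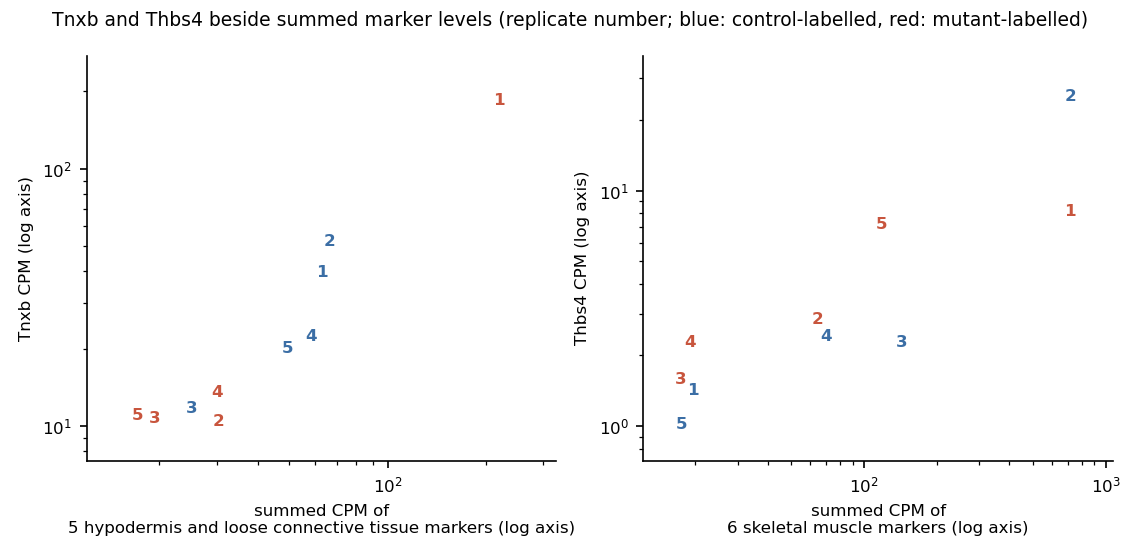
Tnxb against the summed CPM of 5 hypodermis and loose connective tissue markers (left), and Thbs4 against the summed CPM of 6 skeletal muscle markers (right), in each of the 10 libraries. All axes are log scaled, and digits are replicate numbers, blue for control-labelled and red for mutant-labelled libraries. Mutant 1 is highest on both axes at the left (184 and 219 CPM), and control 2 is highest on both axes at the right (25.0 and 717 CPM).

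SPARC and hevin bind collagen and oppose cell spreading, SPARC chiefly in bone and hevin in vessel walls and nervous tissue. Sparc (chr11:55394500-55423183, minus strand) was at 8670.4, 7118, 8535, 9149 and 8757 CPM in control-labelled libraries and at 6994, 6548, 8918, 7949.6 and 8715 CPM in mutant-labelled libraries. Mutant 1 and mutant 2 lay below every control, and the other 3 lay within the control range. The log2 fold change was −0.11 (standard error 0.116, 95% interval −0.36 to 0.14, adjusted p = 0.861 in edgeR; exact permutation p = 0.294). Over the 10 libraries Sparc had a correlation of 0.77 with the osteoblast markers, −0.85 with the 7 chondrocyte markers and −0.77 with the neuron markers. The last was −0.47 without the 2 libraries farthest from the median of the neuron level. The chondrocyte markers summed to 288 to 373 CPM in controls and 383 to 431 CPM in mutants, and their part in the Sparc values was not tested. With the osteoblast level held constant the log2 fold change of Sparc was 0.17, and with the AF and tendon-like level −0.31, neither with an adjusted p-value under 0.05.

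Sparcl1 (chr5:104079111-104113733, minus strand) ranged from 164 to 209.8 CPM in control-labelled libraries, with a median of 197, and from 163 to 201 CPM in mutant-labelled libraries, with a median of 178. The log2 fold change was −0.07 (standard error 0.0822, 95% interval −0.25 to 0.11, adjusted p = 0.881 in edgeR). It followed endothelium markers, with a correlation of 0.84 over the 10 libraries (Spearman 0.72, and 0.83 for deviations from the group means). The 6 endothelium markers summed to 611 to 758 CPM in controls and 583 to 734 CPM in mutants.

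The spread between libraries of 1 group sets how large a difference could be seen. The coefficient of variation was 8.33% for Tnc, 9.20% for Sparc, 10.4% for Sparcl1, 11.7% for Thbs2, 11.9% for Thbs3, 12.3% for Postn and 18.1% for Thbs1 in control-labelled libraries, and 24.5% for Tnn. Those of Tnxb and Thbs4 were 56.3% and 162%. In mutant-labelled libraries the coefficients were 8.04% for Thbs3 to 35.4% for Tnn among the same 8 genes, and 168% for Tnxb and 69.0% for Thbs4. The 9 genes other than Thbs4 had at least 248 counts in every library.

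For each gene, the genes most like it were those with the highest Pearson correlation of log2 CPM over the 10 libraries among the 8764 tested genes with a mean of at least 10 CPM. These are descriptions, since libraries share their group, depth and tissue make-up. For Postn they were Vim, Lmna and Angptl2 (0.97, 0.94 and 0.93), and for Tnc they included Ilk and Stk11ip (0.94 and 0.90). For Tnn they were Loxl2, Tcf7 and Slc16a3 (0.96, 0.95 and 0.95), and for Tnxb Dlk1, Col6a6 and Ntn1 (0.98, 0.97 and 0.97). Thbs1 was most like Svep1, Ephb3 and Zim1 (0.97, 0.96 and 0.95), and Thbs2 most like Adcy2, P3h3 and Gemin5 (0.96, 0.95 and 0.95). Of these, Svep1, a large adhesion protein of the matrix, was at 52.3 to 98.8 CPM and had a log2 fold change of 0.46 (unadjusted p = 0.00229, edgeR). As Svep1 was picked for its likeness to Thbs1 in these same libraries, its difference is not independent of that of Thbs1. Thbs3 was most like Daxx, Stag1 and Timp2 (0.94, 0.92 and 0.91). Thbs4 was most like Srebf2, Myh3 and Des (0.93, 0.93 and 0.91), of which Myh3 is embryonic myosin heavy chain and Des is the muscle filament desmin. Sparc was most like Serpinf1, Nrbf2 and Dpagt1 (0.95, 0.94 and 0.94), and Sparcl1 most like Tspan18, Apoe and Pecam1 (0.93, 0.92 and 0.91), the last an endothelial adhesion molecule. Without the 2 libraries farthest from the median of the like gene, the correlations of the genes named ran from 0.76 to 0.97.

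Other genes of the same pathways were counted in fixed lists. Of 17 other matricellular genes tested, 3 were called at an unadjusted p-value under 0.05 with lower values under the mutant label, a direction called for 3.82% of all genes, and none with higher values (3.68%). Spp1, which encodes osteopontin, stood at 4518 ± 681 CPM under the control label and 3481 ± 295 CPM under the mutant label (log2 fold change −0.38, unadjusted p = 0.00634 in edgeR). Tgfbi, a relative of periostin, was at 76.0 ± 6.46 and 65.0 ± 10.1 CPM (log2 fold change −0.23, unadjusted p = 0.0471 in edgeR). Ccn4, a WNT-induced protein of the CCN family, stood at 192 ± 18.46 and 172 ± 10.6 CPM (log2 fold change −0.16, unadjusted p = 0.0458 in edgeR). The Tgfbi and Ccn4 calls each held in 2 of the 10 fits that left out a library, and both were lost with DESeq2 size factors (unadjusted p = 0.0535 and 0.0529), the replicate block (0.0511 and 0.0532) or limma voom (0.0566 and 0.0546). The Spp1 call held in all 10. The median log2 fold change of the 17 was 0.08, above 0 although all 3 called genes were below it.

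Of 17 receptors tested, 2 had lower values and none had higher values at that threshold, against the same 3.82% and 3.68% of all genes. Itgb3, the β chain of an integrin that binds osteopontin, periostin and thrombospondin-1, was at 113 ± 19.4 and 91.3 ± 8.83 CPM (log2 fold change −0.30, unadjusted p = 0.0262 in edgeR). Ptprz1, a receptor phosphatase that binds tenascin-C, was at 81.6 ± 7.91 and 66.5 ± 5.19 CPM (log2 fold change −0.29, unadjusted p = 0.00238 in edgeR). The Itgb3 call held in 6 of the 10 fits that left out a library, with an unadjusted p-value of up to 0.0801 in edgeR, and was lost with the replicate block (0.0562), while that of Ptprz1 held in all 10. The thrombospondin receptors Cd47 and Cd36 were not among the genes called. Of 16 matrix partners tested, Fbln2, which encodes fibulin-2, was the sole gene called at that threshold, at 304 ± 37.8 and 401 ± 57.9 CPM. Its log2 fold change was 0.40 (unadjusted p = 0.00398 in edgeR). The median was 0.02 for receptors and 0.04 for matrix partners. None of these genes passed the adjusted threshold in edgeR, while in DESeq2's Wald test the adjusted p-value was 0.0449 for Spp1 and 0.0461 for Fbln2. Spp1 is also among the osteoblast markers.

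**Figure D5:**
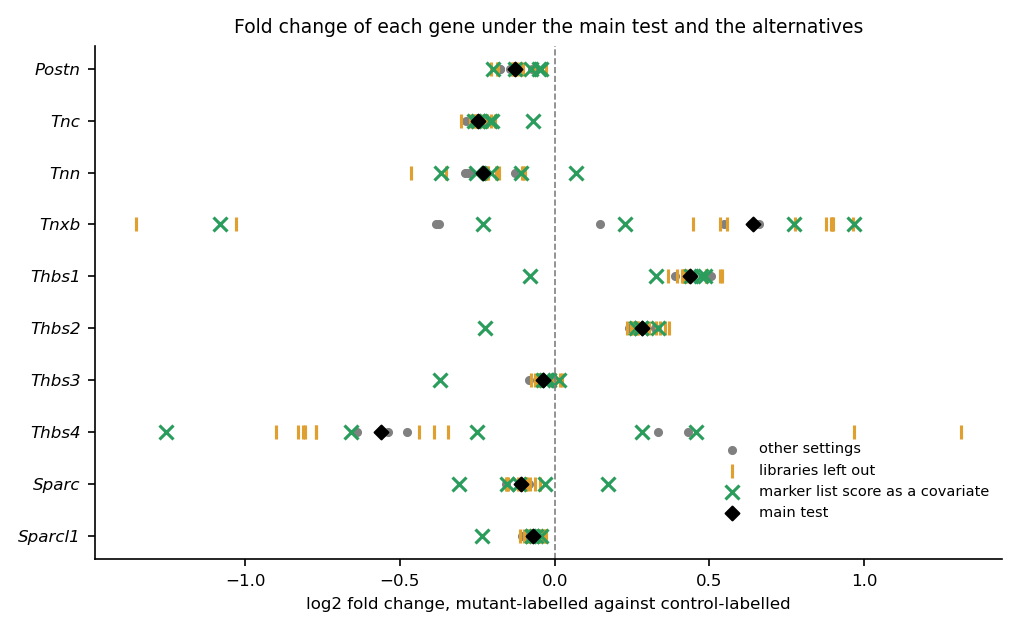
Log2 fold change of each gene between mutant-labelled and control-labelled libraries under the main test (black diamonds) and under 25 alternatives. Vertical ticks leave out libraries, crosses hold the level of a marker list constant, and grey dots are other settings. Postn, Tnc and Sparcl1 lie below 0 under all of these settings, Thbs1 and Thbs2 each cross 0 under 1 setting, and Tnxb and Thbs4 spread on both sides of 0.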

How the data were processed

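Bulk RNA-seq was made from 10 AF samples, 5 per group. The authors deposited 1 table of estimated counts per gene and library, not scaled between libraries, and the submitters' processing notes name Partek and mm10. The aligner, the counting tool and its use of strand are not given in the sources used here. Gene positions are on GRCm38, as 22296 of 22533 symbols had the position given in GENCODE M21. Estimated counts were rounded to whole numbers, although the planned design assumed whole counts. The tools were edgeR 4.0.16, DESeq2 1.42.0 and limma 3.58.1, run in R 4.3.3. The expression filter of edgeR left 16267 genes to test and took out 6813. After TMM scaling, the groups were tested without pairing by the quasi-likelihood method of edgeR, with Benjamini-Hochberg adjustment over all genes tested and a threshold of 0.05. Intervals are 95% intervals of that fit. An exact permutation test, two-sided and over the 252 ways to group the libraries, was added for single genes. Log2 CPM used a prior count of 0.5. The test was tried on simulated counts. The genes, gene lists and naming rule (the 10 genes, list genes at an unadjusted p-value under 0.05, and the 3 most similar genes for each) were chosen with earlier results of these data known. For Tnc, 1 of its 3 is not reported here. Alternatives changed the scaling, the filter, the test, covariates, the replicate block and each library in turn. No replicate pair of 1 group agreed within sampling noise.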

Additional observations from a re-analysis of the deposited data

Results flagged for a closer look

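In 20 groups of 5 libraries (10 genes in each label group), 5 held a library whose log2 CPM stood farther from its nearest neighbour than Dixon's critical share of the range, 0.71. Chance alone gives about 1 in 20 groups. Tnxb was high in mutant 1 at 184 CPM, and Thbs4 was high in control 2 at 25.0 CPM. Thbs1 was low in mutant 2 at 198 CPM, and Thbs3 was low in the same library at 73.2 CPM. Sparc was low in control 2 at 7118 CPM. Mutant 1 was also the library highest in hypodermis markers, mutant 2 in neuron markers and control 2 in skeletal muscle markers, and the part of those markers in these values was not tested.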

How the results depend on the processing

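No alternative gave any of the 10 genes an adjusted p-value under 0.05. The number of the 10 at an unadjusted p-value under 0.05 ran from 1 (without control 4, with 855 of all genes) to 4 (without control 2, with 1370 of all genes, or without mutant 1, with 1267) when a library was left out, against 3 of the 10 and 1219 of all genes with every library. It was 0 with the osteoblast level held constant (567 of all genes) and 1, Thbs3, with the AF and tendon-like level (1160 of all genes). Across all alternatives Postn, Tnc and Sparcl1 kept 1 direction, and Thbs1 and Thbs2 turned only with the AF and tendon-like level held constant (−0.0793 and −0.23). Genes with adjusted p-values under 0.05 numbered 3 in edgeR, 1 each with library size alone, the replicate block or Xist as a covariate, 98 by DESeq2's Wald test, and 1 to 6 without 1 library. Genes whose groups did not overlap numbered 314 to 481 without 1 library and 694 without control 2 and mutant 1, as fewer libraries are compared.

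No label ties replicate numbers to litters, and the deviations of same-numbered libraries correlated at −0.21 to 0.14, over 0.1 for 1 of 5 numbers. In the fit with the replicate block the log2 fold change was −0.38 for Tnxb and 0.33 for Thbs4, and Tnc and Thbs1, but not Thbs2, had an unadjusted p-value under 0.05, 2 of the 10 and 1076 of all genes. With the osteoblast level held constant it was 0.0676 for Tnn, −1.08 for Tnxb and 0.17 for Sparc. It was 0.46 for Thbs4 with the AF and tendon-like level, and 0.0134 for Thbs3 with the neuron level. With the muscle level it was −0.23 for Tnxb and 0.28 for Thbs4. By limma voom it was −0.37 for Tnxb and 0.43 for Thbs4, and without control 2 and mutant 1 it was −1.03 and 0.97. On the linear scale the mean difference was 16.7 CPM for Tnxb and −2.02 CPM for Thbs4, against −0.37 and 0.32 in mean log2 CPM. Leaving out each library in turn gave −1.35 to 0.97 for Tnxb, −0.0778 to 0.0236 for Thbs3 and −0.90 to 1.31 for Thbs4. The causes of these shifts were not tested. The hypodermis, muscle and neuron levels and the omission of both libraries were chosen after seeing the data. At 24 to 729 counts, Thbs4 had the least depth of the 10 genes.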
